A study of Mus musculus with 2 samples.

Results

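The core loop of the circadian clock was read in liver through 10 genes: the activators Arntl, Clock and Npas2, the repressors Per1, Per2, Per3, Cry1 and Cry2, and the REV-ERB genes Nr1d1 and Nr1d2. The genes were chosen by name for their place in the loop, and every probe set annotated to exactly 1 of these symbols was taken. This gave 23 of the 34958 probe sets with 1 symbol, for 10 of 18194 genes, and no probe set with several symbols named any of them. The livers came from ICR mice, an outbred stock, aged 13 weeks. The diosgenin group was fed CRF-1, a basal chow, to which diosgenin had been added at 500 ppm for 4 weeks, and the control group was fed CRF-1 alone. Diosgenin is a steroidal sapogenin of plants. Each diet was measured on 1 Affymetrix array that carried RNA pooled from 3 mice. Lights were on and off in equal parts of the day, and the hour at which livers were taken is not given in the labels. Clock transcripts vary over the day, so a difference in hour and a difference in diet cannot be told apart here. Mice were kept 3 to a cage, and the labels do not say whether a diet was 1 cage.

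In the clock of mammalian cells, ARNTL (BMAL1) pairs with CLOCK or with its relative NPAS2 and binds E-box sequences to switch on the Per, Cry and Nr1d genes. PER and CRY proteins return to the nucleus and block that activator pair. REV-ERB proteins, encoded by Nr1d1 and Nr1d2, close a further loop by repressing Arntl, Npas2 and Cry1 through sites that ROR activators also use. In mouse liver the transcripts peak one after another: Nr1d1 in the middle of the light phase, Nr1d2 and Per3 later in it, Per1 around dusk, Per2 and Cry2 early in the dark phase, Cry1 late in it, and Npas2, Arntl and Clock around dawn, with shallow rhythms for Cry2 and Clock.

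In that order, the first 4 genes had higher signals on the diosgenin array than on the control array, and the later 6 lower. Each gene was read by its brightest probe set. Members and order were chosen with earlier results of these data known, so the pattern is a description and no independent finding. Per1 had the highest ratio and Cry1 the lowest. Of the 10 genes, 8 were above a filter on mean signal of 28.4, and Per3 and Npas2 were under it. Among these 8, the REV-ERB genes and Per1 were higher, and Per2, both Cry genes, Arntl and Clock were lower. The difference was at least 1.5-fold for 3 of the 8: Per1 and Nr1d1 were higher and Cry1 was lower. Over the 9732 genes above the filter, 6.44% were at least 1.5-fold apart, 2.84% higher and 3.61% lower. The median size of the log2 ratio, without its sign, was 0.51 over the 8 clock genes and 0.16 over the 9732 genes. Their median log2 ratio with its sign was −0.17, against −0.01 over the 9732 genes, and it depends on how many genes of each peak time the group holds. There was 1 array per diet, so no difference below has a test, an SE or an interval, and all describe 2 pools. A scale for them inside the arrays is the standard deviation of 0.28 in log2 ratio between probe sets of the same gene, which holds no spread between mice. The ratios of Per2, Cry2 and Clock were smaller than this.

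**Figure D1:**
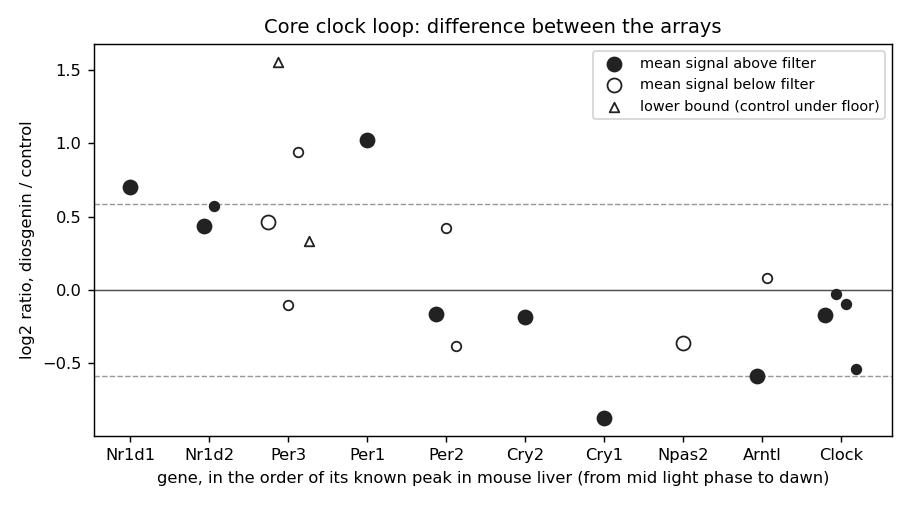
Log2 ratio, diosgenin over control, of array signal (vertical axis) for every probe set with a ratio, by gene in the order of known peak time in mouse liver (horizontal axis). Large symbols are each gene's brightest probe set, filled circles lie above the signal filter, open circles below it, triangles are lower bounds because the control signal was under the floor, and dashed lines mark 1.5-fold. The large symbols lie above 0 for Nr1d1, Nr1d2, Per3 and Per1 and below 0 for the other 6 genes.

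The signals behind these ratios were linear array intensities. Signals under a floor of 10.7 were raised to that value, so a ratio with 1 signal under it is a bound. Signals of different probe sets depend on their oligonucleotides and do not rank genes by transcript level. The brightest probe sets of all 8 genes above the filter passed it on both arrays, and their lowest signal was 42.3, that of Per1 on the control array. The brightest probe set just under the filter was the second one of Arntl, with a mean of 26.5, and the dimmest just above it was one of Clock, with a mean of 41.4. Nr1d1, Per1, Cry1 and Cry2 were each read by a single probe set. All 3 genes past 1.5-fold were among them, and so had no repeat measurement inside the array.

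**Figure D2:**
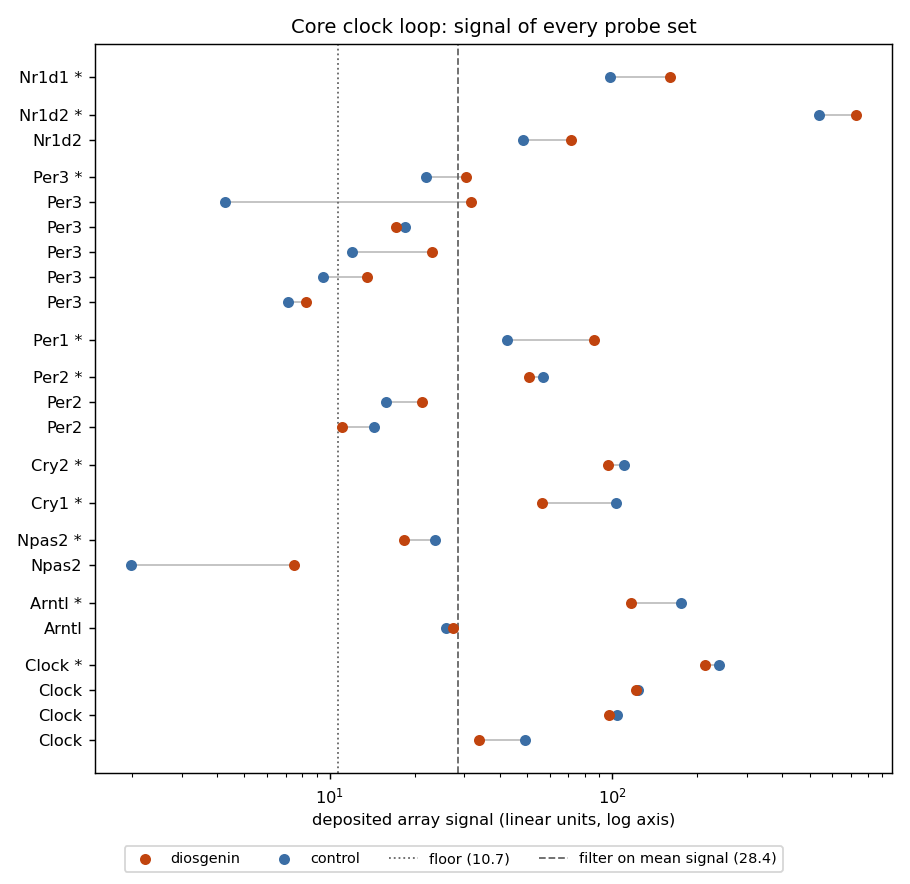
Deposited signal of all 23 probe sets on the diosgenin array (orange) and the control array (blue), on a log axis in linear signal units, with 1 row per probe set grouped by gene in order of peak time. An asterisk marks the brightest probe set of a gene, the dotted line is the floor of 10.7 and the dashed line the filter value of 28.4. Of the 23 probe sets, 11 had mean signals under the filter, among them all 6 of Per3 and both of Npas2.

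Both REV-ERB genes, which encode heme-binding nuclear receptors that repress transcription, had higher signals on the diosgenin array. Nr1d1 (1426464_at) had a signal of 160.2 on the diosgenin array and 98.3 on the control array, 1.63-fold higher, a log2 ratio of 0.70. That ratio was number 175 from the highest of 9732 genes. With the 9732 genes split by mean signal into 3 classes of 3244, those of the middle class, from 89.4 to 265, were at least 1.5-fold higher in 1.82% of cases. The 3′ end of Nr1d1 overlaps that of Thra, which encodes a thyroid hormone receptor and lies on the opposite strand. The 3 probe sets of Thra had log2 ratios between −0.15 and 0.00. Nr1d2 was read by 2 probe sets that differed in brightness and gave the same direction. The brighter one had 729 on the diosgenin array and 539.7 on the control array, 1.35-fold higher. The dimmer one had 71.7 on the diosgenin array and 48.2 on the control array, 1.49-fold higher. The log2 ratios of 0.43 and 0.57 differed by less than the standard deviation between probe sets of a gene.

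The sequence before the start of Nr1d1 is shown because the E-box family is the entry point of the activator pair to this gene. In RefSeq's GRCm38.p6 it lies at chr11:98775378-98775627 on the minus strand, and capitals mark the E′-box, CACGTT read on the other strand, at position −28 from the start.
Nr1d1: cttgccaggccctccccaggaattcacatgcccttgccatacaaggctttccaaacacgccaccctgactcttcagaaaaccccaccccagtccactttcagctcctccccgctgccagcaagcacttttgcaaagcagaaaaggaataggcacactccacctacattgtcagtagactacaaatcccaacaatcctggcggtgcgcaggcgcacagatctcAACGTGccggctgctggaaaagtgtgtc
The E′-box occurred in 4.68% of the 32851 promoter windows of 300 bases in the same RefSeq table, searched on both strands. The canonical E-box CACGTG was not in this window. The window of Nr1d2 held none of the motifs searched.

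The Per genes, whose products bind CRY proteins and block the activator pair together with them, did not share a direction. Per1 (1449851_at) had a signal of 85.9 on the diosgenin array and 42.3 on the control array, 2.03-fold higher, a log2 ratio of 1.02. It was the only one of the 8 genes at least 2-fold apart, where 1.41% of the 9732 genes were, and 0.555% of the 9732 were at least 2-fold higher. Its mean signal lies in the dimmest class of genes, from 28.4 to 89.4, in which 1.14% were at least 2-fold higher. Per1 was number 47 from the highest of 9732 genes. With a pseudocount of 16 added in place of the floor, its log2 ratio was 0.80, under 2-fold.

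Per2 (1417602_at) had 50.9 on the diosgenin array and 57.1 on the control array, 1.12-fold lower. Its other 2 probe sets were under the filter and went opposite ways, with log2 ratios of 0.42 and −0.38. The direction of Per2 thus rests on 1 probe set and a small ratio. Per3 was dim in all 6 probe sets. The brightest had 30.3 on the diosgenin array and 22.02 on the control array, 1.38-fold higher. A second had 31.6 on the diosgenin array and 4.28 on the control array, where it was under the floor, which makes the difference at least 2.94-fold. Of the 5 Per3 probe sets with a ratio or bound, 4 were higher on the diosgenin array, and the exception had a log2 ratio of −0.10. The sixth was under the floor on both arrays and has no fold. When the floor was moved to the 60th percentile of signals, the log2 ratio of the brightest Per3 probe set was 0.09.

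The promoters of Per1 and Per3 are shown because they hold different clock elements. That of Per1, the first of 2 annotated starts, lies at chr11:69098699-69098948 on the plus strand of GRCm38.p6, with the E-box CACGTG in capitals at position −166. That of Per3 lies at chr4:151044666-151044915 on the minus strand, with 2 copies of the D-box TTATGTAA in capitals at positions −205 and −158. D-boxes are bound by DBP, TEF and HLF, which activate, and by NFIL3, which represses.
Per1: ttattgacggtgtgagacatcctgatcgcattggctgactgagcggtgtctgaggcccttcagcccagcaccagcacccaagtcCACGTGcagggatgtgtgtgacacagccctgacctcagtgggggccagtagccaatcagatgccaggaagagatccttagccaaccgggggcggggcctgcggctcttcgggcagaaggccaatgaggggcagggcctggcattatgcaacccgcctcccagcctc
Per3: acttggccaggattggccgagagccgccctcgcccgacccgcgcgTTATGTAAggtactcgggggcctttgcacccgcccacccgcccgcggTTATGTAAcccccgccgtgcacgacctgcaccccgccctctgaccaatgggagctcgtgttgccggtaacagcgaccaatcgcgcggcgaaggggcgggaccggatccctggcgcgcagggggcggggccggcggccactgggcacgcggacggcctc
The E-box CACGTG occurred in 7.15% of the 32851 windows and this D-box in 0.938%. The window at the second start of Per1 held none of the motifs.

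Signals of both cryptochromes, the repressors that bind the activator pair directly, were lower on the diosgenin array. Cry1 (1433733_a_at) had 56.3 on the diosgenin array and 103 on the control array, 1.83-fold lower, a log2 ratio of −0.87. It was number 126 from the lowest of 9732 genes. In the dimmest class, which holds Cry1, 7.09% of genes were at least 1.5-fold lower, so a difference of this kind was more frequent there than over all genes. Cry2 (1426383_at) had 96.8 on the diosgenin array and 109.8 on the control array, 1.13-fold lower, within the standard deviation between probe sets.

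The promoter of Cry1 is shown because it holds both forms of the E-box close together. It lies at chr10:85185055-85185304 on the minus strand of GRCm38.p6. Capitals mark an E′-box, read as AACGTG, at position −79 and the E-box CACGTG at position −60.
Cry1: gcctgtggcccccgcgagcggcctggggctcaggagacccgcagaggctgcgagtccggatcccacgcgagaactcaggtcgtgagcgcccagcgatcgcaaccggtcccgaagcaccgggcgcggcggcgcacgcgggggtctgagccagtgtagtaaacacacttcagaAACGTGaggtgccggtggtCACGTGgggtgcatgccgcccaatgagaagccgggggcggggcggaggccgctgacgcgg
The window of Cry2 held an E′-box at position −166 and no CACGTG. Among members with an E-box or E′-box in the window, Per1 and Nr1d1 had higher and Cry1 and Cry2 lower signals on the diosgenin array. The Cry2 ratio was within the standard deviation between probe sets, and a link between motif and direction was not tested.

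The activators had lower signals on the diosgenin array. Arntl (1425099_a_at) had 116 on the diosgenin array and 174 on the control array, a log2 ratio of −0.58. Unrounded, this falls just short of the 1.5-fold threshold, so Arntl is not among the 3 genes counted. It was number 352 from the lowest of 9732 genes. Its second probe set, under the filter, had 27.3 on the diosgenin array and 25.8 on the control array, a log2 ratio of 0.08. The probe sets of Arntl therefore disagreed, and the suffix of the brighter one marks a set that reads several transcripts of the gene.

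Clock was covered by 4 probe sets above the filter, all lower on the diosgenin array. The brightest had 212 on the diosgenin array and 238.5 on the control array, 1.12-fold lower. The next 2 had log2 ratios of −0.03 and −0.09. The dimmest had 33.7 on the diosgenin array and 49.0 on the control array, a log2 ratio of −0.54. Npas2 was under the filter, with 18.4 on the diosgenin array and 23.6 on the control array in its brighter probe set, 1.28-fold lower. Its other probe set was under the floor on both arrays and gives no ratio.

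The Arntl site is shown because it is the kind of element through which REV-ERB proteins repress and ROR proteins activate. These 30 bases, at chr7:113207530-113207559 on the plus strand of GRCm38.p6, hold TAGGTCA in capitals, whose first base is number 31 after the second annotated start of Arntl.
Arntl: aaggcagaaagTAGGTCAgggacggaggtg
TAGGTCA occurred in 2.61% of the 32851 windows. Among the 9 members with a window in the table it was found in Arntl alone, and the related TGGGTCA, the second D-box form TTACGTAA and the cyclic AMP element TGACGTCA were found in none. The windows of Clock and Npas2 held no motif. A match of letters is a description of the sequence and shows no binding.

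**Figure D3:**
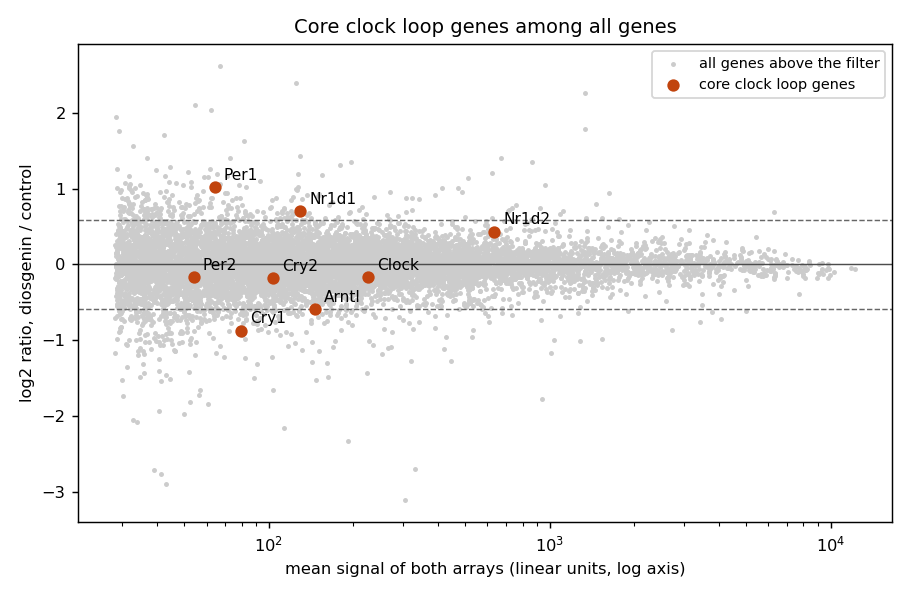
Log2 ratio, diosgenin over control, (vertical axis) against the mean signal of both arrays (horizontal log axis, linear signal units), with grey points for the 9732 genes above the filter and orange points for the 8 core clock genes among them. Dashed lines mark 1.5-fold. Per1, Nr1d1 and Cry1 lie outside the lines, Arntl lies on the lower one, and the cloud of grey points is widest at low signals, where Per1, Cry1 and Per2 lie.

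Output factors, which the loop drives and which carry its rhythm to other genes, were mostly higher on the diosgenin array. Of 10 listed genes 9 were above the filter, 7 of them higher and 2 lower, with 3 at least 1.5-fold higher and none as much lower, and a median log2 ratio of 0.47. Among all 9732 genes above the filter, 2.84% were at least 1.5-fold higher and 3.61% as much lower, and the median was −0.01. Dbp, a D-box activator under direct E-box control, had 211 on the diosgenin array and 39.99 on the control array, 5.27-fold higher, a larger ratio than that of the brightest probe set of any core member. Bhlhe40, an E-box repressor, was 1.94-fold higher, the D-box activator Tef 1.57-fold higher and the transcription factor Klf10 1.42-fold higher. Regulators of the loop, namely its kinases, ubiquitin ligases, ROR genes and cofactors, went both ways. Of 21 listed genes 13 were above the filter, 8 higher and 5 lower, and their log2 ratios had a median of 0.04. Gsk3b, a kinase that phosphorylates several clock proteins, was 1.71-fold lower and the only one past 1.5-fold by its brightest probe set. Its other 3 probe sets ranged from −0.25 to 0.52 in log2 ratio. Csnk2a1 had a log2 ratio of 0.04 in its brightest probe set, and its other 4 above the filter ranged from −0.78 to 0.02. Nampt, an enzyme of NAD synthesis under clock control, was 1.45-fold higher, Prkaa2, a subunit gene of AMP-activated kinase, 1.30-fold lower and the deacetylase gene Sirt1 1.26-fold higher. The other 2 probe sets of Prkaa2 above the filter went the other way, with log2 ratios of 0.06 and 0.16. The other 2 of Nampt had log2 ratios of 0.03 and 0.49. Rora, the activator that shares sites with REV-ERB, was 1.12-fold lower at 374 on the diosgenin array and 419.7 on the control array.

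Per1 is also an immediate target of cyclic AMP, growth factor and glucocorticoid signals, and liver clock genes answer to feeding. Values of genes that answer to these signals are therefore given beside it. Immediate early genes numbered 13 above the filter, with a median log2 ratio of −0.22. On the diosgenin array 4 had higher and 9 lower signals, 4 of the 9 by at least 1.5-fold. Over the 9732 genes above the filter, 3.61% were as much lower. Egr1 had 63.1 on the diosgenin array and 545 on the control array, and Dusp1 was 1.80-fold lower. Fos had 21.2 on the diosgenin array and 61.6 on the control array, and Myc had 21.9 on the diosgenin array and 49.6 on the control array. Fos and Myc were under 28.4 on the diosgenin array and passed the filter through the control array, where they were high. Of the 11 immediate early genes above 28.4 on both arrays, 4 were higher and 7 lower, 2 of these by at least 1.5-fold, with a median of −0.13. The list of 10 glucocorticoid-responsive genes, which includes Per1 and Dusp1, had 8 members higher and 2 lower, and its log2 ratios had a median of 0.17. Beyond these, its largest ratios were those of the metallothioneins Mt1 and Mt2, 1.47-fold and 1.36-fold higher, while Fkbp5 was 1.22-fold higher. Genes of fasting and feeding went both ways, 5 higher and 7 lower of 12, with a median of −0.12. Pdk4 was 2.83-fold lower, Ppargc1a 1.83-fold higher, Igfbp1 1.48-fold lower and Angptl4 1.37-fold higher. The part of these signals in the values of the clock genes was not tested.

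**Figure D4:**
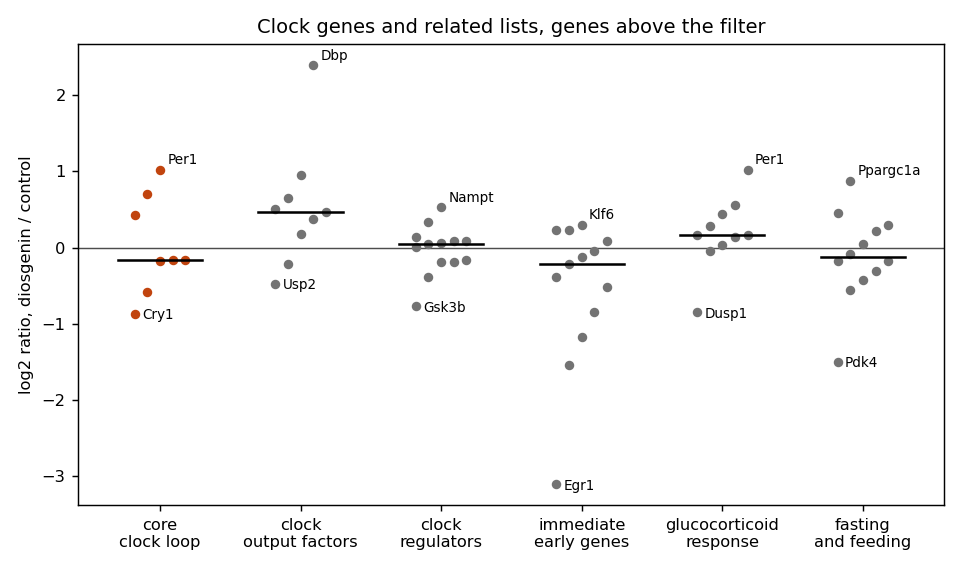
Log2 ratio, diosgenin over control, for each gene above the filter in 6 lists, with 1 point per gene, a black line at each median and the highest and lowest gene named. The core clock genes (orange) spread to both sides of 0, from −0.87 for Cry1 to 1.02 for Per1, output factors lie mostly above 0, and immediate early genes reach −3.11 at Egr1.

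All 8 hepatocyte markers on the array were above the filter, with a median log2 ratio of −0.07 and summed signals of 52905 on the diosgenin array and 55870 on the control array. Endothelial markers were lower in 9 of 10 cases, with sums of 1602 on the diosgenin array and 2097 on the control array. Kupffer and myeloid markers were higher in 8 of 10 cases, of which Marco passed the filter through the diosgenin array only, with sums of 2751 on the diosgenin array and 2469 on the control array, and stellate markers in 8 of 9, with sums of 4204 on the diosgenin array and 3596 on the control array. Only 1 of 5 cholangiocyte and 1 of 8 lymphocyte markers on the array were above the filter. Of 6 pancreas markers on the array 2 were above it. Cela1 had 1150.1 on the diosgenin array and 1212 on the control array, while Cela3b was dim, with 44.2 and 38.2. Another 3 pancreas markers were under the floor on both arrays, so Cela1 stood apart from its list. Of 3 erythroid markers on the array 1 was above the filter, namely Alas2, with 1123 on the diosgenin array and 1309 on the control array. Clock genes are active in most cell types, a whole-liver pool cannot tell fewer cells of a type from less RNA per cell, and the part of cell makeup in the clock values was not tested.

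The direction of each of the 10 genes was the same under every processing alternative that gave it a value. Moving the floor, changing the filter or adding a pseudocount cannot turn a direction, so much of this was fixed in advance. The second Arntl probe set, of the other direction at 0.08, was under the filter and was not counted. The ratios of the 3 genes past 1.5-fold ranged from 0.80 to 1.03 for Per1, from 0.62 to 0.71 for Nr1d1 and from −0.87 to −0.72 for Cry1 on the log2 scale. Cry1 and the brighter Arntl probe set had no value when probe sets that read several transcripts were left out.

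**Figure D5:**
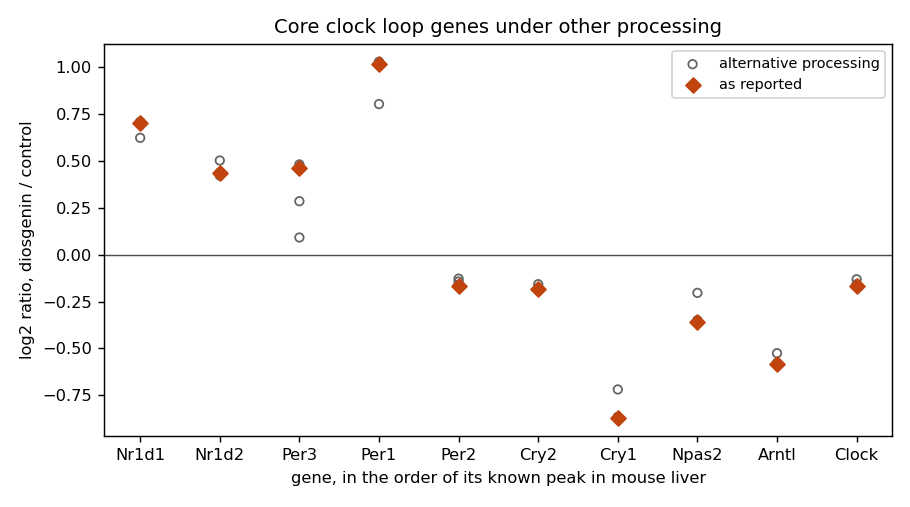
Log2 ratio, diosgenin over control, for each core clock gene as reported (diamonds) and under each alternative processing that gave a value (open circles). No point changes side of 0, which changes of floor, filter or pseudocount could not bring about, and Per3 comes nearest to it, at 0.09.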

How the data were processed

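Liver RNA was pooled from 3 mice per diet and hybridised to 1 array each, per the labels' protocols. The deposited table held linear array intensities of 45101 probe sets, made with GCOS per the submitters' processing notes. The summary method, scaling target and presence calls of GCOS were not given in the sources used here. The 2% trimmed mean was 96.9 on both arrays, as global scaling gives. Gene symbols came from the platform annotation. Of all probe sets 932 had several symbols and 9211 were unnamed here.

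Signals under the 40th percentile of both arrays (10.7) were raised to it, and log2 ratios were diosgenin over control. For each gene the brightest probe set by mean signal was used, if at or above the 60th percentile of means (28.4). The calculation was tested on simulated data. Differences were simulated only for genes well above the filter, with noise smaller than the spread between probe sets of a gene. Recovery of a difference was therefore not tested for genes as dim as Per1 and Cry1. All 10 members were named and all their probe sets plotted, and up to 4 genes per further list were named by size of ratio. Rora, Thra, Fkbp5 and Csnk2a1 were chosen after their values were seen. With 2 arrays, likeness of pattern to other genes could not be measured. Members, their order and all lists were chosen with earlier results of these data known. Promoter sequences are RefSeq's, for 9 of 10 members, in 13 windows. Python 3.11.15, numpy 2.4.6 and pandas 2.3.3 were used. The number of arrays limits the precision, and 9 processing alternatives were tried.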

Additional observations from a re-analysis of the deposited data

How the results depend on the processing

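All 78 values of single clock genes under the 9 alternatives kept their sign, which changes of floor, filter or pseudocount could not turn. Of these values 1 moved by more than the standard deviation between probe sets, that of Per3 with the floor at the 60th percentile, at 0.09. With the filter at the 75th percentile, 5 members were left, with 1 at least 1.5-fold higher (Nr1d1), 0 at least 1.5-fold lower and 0 at least 2-fold apart, since Per1 and Cry1 were too dim to pass. With a pseudocount of 16 in place of the floor, 0 members were 2-fold apart. Without probe sets ending in _s_at, _x_at or _a_at, 6 members were left and 0 were at least 1.5-fold lower. The median log2 ratio of members was then 0.13, because Cry1 and Arntl were not among them, and that of clock regulators was −0.065. With the filter applied on both arrays, chosen after the data were seen, 2 immediate early genes were at least 1.5-fold lower, since Fos and Myc did not pass. The other counts stayed as reported, and the other medians moved by less than 0.1. No paired analysis was possible because each diet had 1 array.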
